A study of Citrus reticulata with 36 samples.

Results

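A set of 100 genes of the ponkan ovule had lower mean levels at 32 than at 18 days after pollination (DAP) in every combination of 2 cultivars and 2 tissues. The genes were taken from 28849 identifiers with a mean of at least 5 CPM (read counts scaled to the same total in every library) over 36 libraries, out of 128861 identifiers in all. For each of HG nucellus, EG nucellus, HG integument and EG integument, called series here, the log2 ratio of the mean CPM + 1 at 32 DAP to that at 18 DAP was formed. The 100 identifiers whose largest of these 4 ratios was lowest are the members. The values at 18 and 32 DAP therefore chose them, and they are given as a description. The libraries at 28 DAP took no part in the choice, apart from the floor on the mean over all libraries. In such bulk samples fewer cells of a type and less RNA per cell cannot be told apart. The members are not all genes that were lower, since 4004 of the 28849 (13.9%) had a lower mean at 32 than at 18 DAP in all 4 series and 3469 (12.02%) had a higher one.

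Seeds develop from ovules. The nucellus is the inner ovule tissue in which the embryo sac lies, and in many citrus it also gives rise to asexual embryos. The integument encloses it and forms the seed coat after fertilisation. Both tissues pass from growth by division to growth by expansion and later to storage, wall thickening or breakdown, so many transcripts change in level with ovule age.

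The study concerned seed abortion in ponkan (Citrus reticulata), a loose-skinned mandarin. The tested cultivars were "Huagan No.4" (HG) and "Egan No.1" (EG); nucellus and integument were cut from ovules by laser capture microdissection, which collects chosen cells from a tissue section. Each of the 12 groups of cultivar, tissue and stage (18, 28 and 32 DAP) held 3 libraries, made from nanogram amounts of RNA that were amplified as cDNA from random primers and sequenced on instruments of 2 models. Which tree, fruit or ovule a captured region came from, and which instrument read a library, are not stated in the labels. The labels call the replicates biological, but regions of a group may share a plant, and p-values over them are then too small. The stages are numbered 1 to 3 in the deposited columns which is taken here to mean 18, 28 and 32 DAP.

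Library totals ran from 12687779 to 20947644 counts, and 99 or 100 of the members had counts in each library. Nucellus and integument libraries were distinct as labelled. Between 21 and 24 identifiers at least 32-fold higher in nucellus of the other cultivar held 1.08% to 2.41% of the counts in EG nucellus and 0.00379% to 0.0279% in EG integument, and 0.589% to 2.89% in HG nucellus and 0.00534% to 0.0560% in HG integument. None of them was a member. The files do not pair identifiers with gene names, and their number is far above that of the genes a plant is known to have, so some may be fragments of 1 gene and "gene" here means an identifier. No member has a known function here, and no marker gene or pathway could be looked up.

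The members were ordinary in abundance. Their mean level over all libraries had a median of 13.2 CPM, against 13.7 CPM for the 28849 identifiers, and ran from 5.03 to 969 CPM. Only 9 averaged at least 100 CPM, and 38 averaged under 10 CPM. The most abundant 2 members held 35.6% of their summed level, so medians over members are used below where a sum would mainly show those 2. The length implied by counts and FPKM had a median of 1758 nt in members and 2009 nt in the 28849. No member shared its component number in the identifier with another member.

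The weakest of the 4 ratios of a member was small. It was -1.39 on the log2 scale for the first member, c24937_g1, and -0.49 for the last, c92254_g1, which is 1.403-fold lower at 32 than at 18 DAP. The identifier just outside, c9972_g1, had -0.49 as well, so no gap in the values sets the members apart from the next genes. In 4 members all 4 ratios were under -1. The median ratio over members was -0.73 in HG nucellus, -0.77 in EG nucellus, -0.83 in HG integument and -0.78 in EG integument, beside medians over the 28849 of -0.05, 0.03, -0.06 and 0.02 in the same order. HG nucellus was the series with the smallest drop for 35 members, and EG integument for 19.

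Levels of single members show how differently 2 genes can meet the same rule. The most abundant member, c58422_g1, had 1666, 2793 and 2200 CPM in HG nucellus at 18 DAP, 1754, 779 and 977 CPM at 28 DAP and 906, 576 and 891 CPM at 32 DAP (replicates 1, 2 and 3). In HG integument it had 1609, 1461 and 1720 CPM at 18 DAP, 1742, 658 and 837 CPM at 28 DAP and 647, 466 and 608 CPM at 32 DAP. The 32 DAP values lay below the 18 DAP values in both tissues without overlap, while replicate 1 at 28 DAP was at the 18 DAP level in both. In EG nucellus the gene had 1162, 909 and 761 CPM at 18 DAP, 766, 606 and 737 CPM at 28 DAP and 625, 596 and 523 CPM at 32 DAP. In EG integument it had 1162, 832 and 743 CPM at 18 DAP, 812, 457 and 553 CPM at 28 DAP and 502, 391 and 470 CPM at 32 DAP. Here too no library at 32 DAP reached the lowest at 18 DAP, with a narrower gap than in HG.

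The first member by the rule, c24937_g1, was mainly an integument transcript. It had 268, 210 and 579 CPM in HG integument at 18 DAP, 31.8, 16.4 and 16.8 CPM at 28 DAP and 23.3, 60.8 and 191 CPM at 32 DAP. In EG integument it had 126, 67.6 and 502 CPM at 18 DAP, 257, 1.77 and 45.2 CPM at 28 DAP and 18.3, 1.59 and 2.65 CPM at 32 DAP. The 32 DAP libraries were below the 18 DAP libraries in both cultivars, but libraries of a group differed from each other many-fold. In nucellus it averaged 12.5 ± 4.38 CPM at 18 DAP, 3.62 ± 0.76 CPM at 28 DAP and 4.14 ± 0.79 CPM at 32 DAP in HG (SD, n = 3 each).

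The second member, c54633_g1, rested on scattered values. It had 0.796, 13.0 and 1.90 CPM in HG nucellus at 18 DAP, 3.82, 3.66 and 19.0 CPM at 28 DAP and 4.85, 0.169 and 0 CPM at 32 DAP. The groups overlapped, and its highest value in HG nucellus was in replicate 3 at 28 DAP. In HG integument that replicate was again the highest, at 37.7 CPM, against 5.61, 12.7 and 14.5 CPM at 18 DAP.

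Overlap between libraries was common among the members. All 3 libraries at 32 DAP were below all 3 at 18 DAP for 36 members in HG nucellus, where 9.20% of the 28849 identifiers were, for 34 in EG nucellus (4.71%), for 51 in HG integument (13.0%) and for 44 in EG integument (5.76%). With edgeR over all 57344 identifiers tested, 2 members were called lower at 32 DAP in HG integument (adjusted p under 0.05, where 0.0541% of all tested were), and 32 were lower at an unadjusted p under 0.05 (4.83% of all tested). In HG nucellus 0 members were called (0% of all), with 26 lower at an unadjusted p under 0.05 (3.65% of all). In EG nucellus 0 were called (0.00349%), with 36 at that unadjusted p (3.26%), and in EG integument 0 (0%), with 35 (3.79%). These contrasts chose the members, so the counts describe them and add no evidence of a change.

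**Figure D1:**
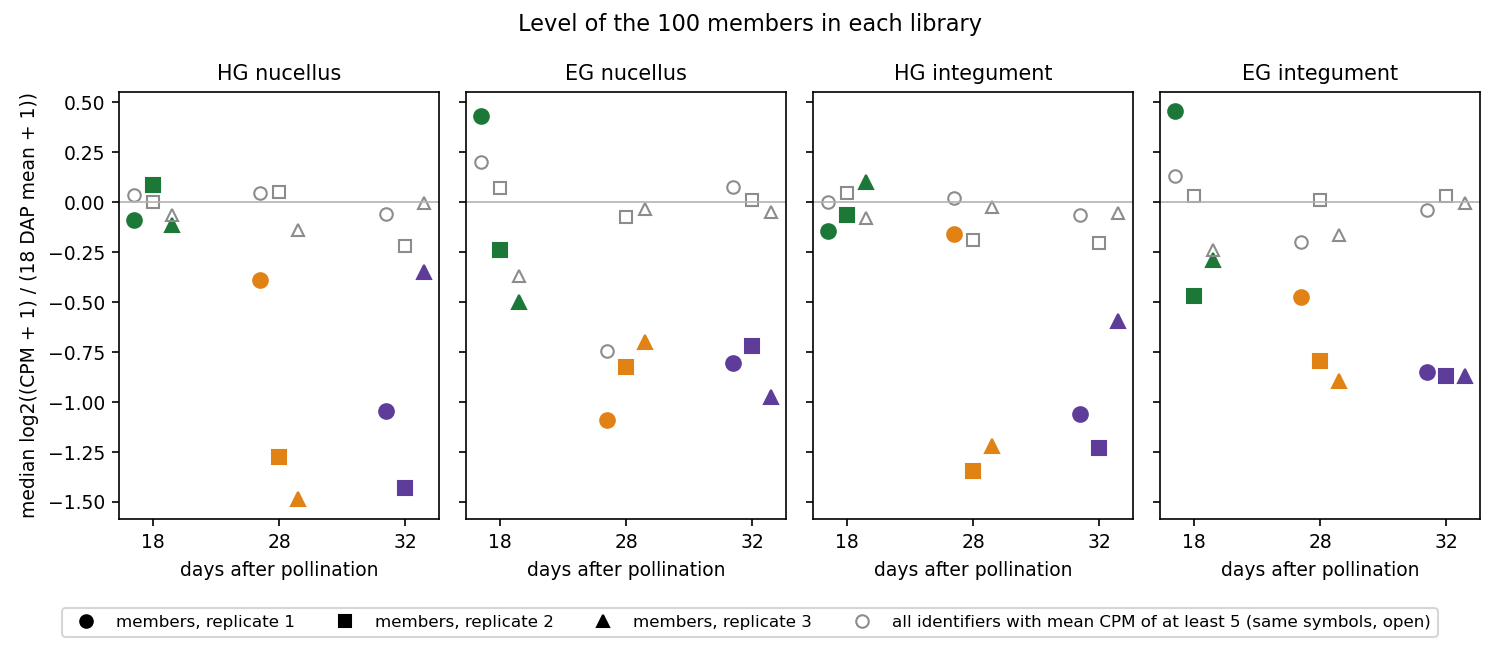
Median over the 100 members of the log2 ratio of each library's CPM + 1 to the mean at 18 DAP + 1 of the same cultivar and tissue (filled symbols, 1 per library, coloured by stage), with the same median over the 28849 identifiers with a mean of at least 5 CPM (open symbols). Replicate 1 of HG at 28 DAP is at -0.39 in nucellus and -0.16 in integument, while replicates 2 and 3 lie between -1.22 and -1.49.

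In several groups 1 library stood apart in the members' level. By the median log2 level relative to 18 DAP, the same replicate number was highest in both tissues in 3 of the 6 pairs of cultivar and stage, and by the members' summed share of counts in 4. The matching count for the median over all identifiers was not made, so this is not shown to be particular to the members. In HG at 28 DAP, the median member in replicate 1 was at -0.39 in nucellus and -0.16 in integument relative to its 18 DAP mean (log2). In replicates 2 and 3 it was at -1.27 and -1.49 in nucellus and at -1.35 and -1.22 in integument. In HG at 32 DAP, replicate 3 stood at -0.35 in nucellus and -0.60 in integument, above replicates 1 and 2 at -1.04 and -1.43 in nucellus and -1.06 and -1.23 in integument. In EG the 18 DAP libraries were spread, with replicate 1 at 0.43 in nucellus and 0.46 in integument, replicate 2 at -0.24 and -0.47, and replicate 3 at -0.50 and -0.29. EG at 32 DAP was tight, between -0.72 and -0.98. In EG at 28 DAP the tissues differed, since replicate 1 was the lowest in nucellus (-1.09) and the highest in integument (-0.47). The median over the 28849 identifiers stayed between -0.37 and 0.20 in all libraries but replicate 1 of EG nucellus at 28 DAP, where it was -0.74 and the members stood at -1.09. That library also had the fewest detected identifiers, 55947. A set of 21 identifiers that varied together over the libraries (a correlation of at least 0.95 with c81185_g1) held 0 members.

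In 8 of the 12 groups by the median log2 level, and in 7 by the summed share of counts, the library in which the members were highest was the one with the lowest total. In the other groups it was not, and in EG integument at 28 DAP it was the one with the highest total of all libraries, 20947644 counts. The median over the 28849 identifiers was also highest in the library with the lowest total in some groups. In replicate 1 of EG at 18 DAP it was 0.20 in nucellus and 0.13 in integument. In other groups, as in HG nucellus at 18 DAP, it was not. The order is therefore not shown to be particular to the members. The 6 HG libraries at 18 DAP had totals of 13464464 to 16938580 counts, and HG at 32 DAP 12976584 to 18758042. Replicate 1 of EG at 18 DAP had 14444012 in nucellus and 12687779 in integument, beside 17921464 to 20436963 in its replicates 2 and 3 and 18926755 to 20022299 in EG at 32 DAP. The part of the library total, and of whatever differs between libraries along with it, in the members' level was not tested.

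**Figure D2:**
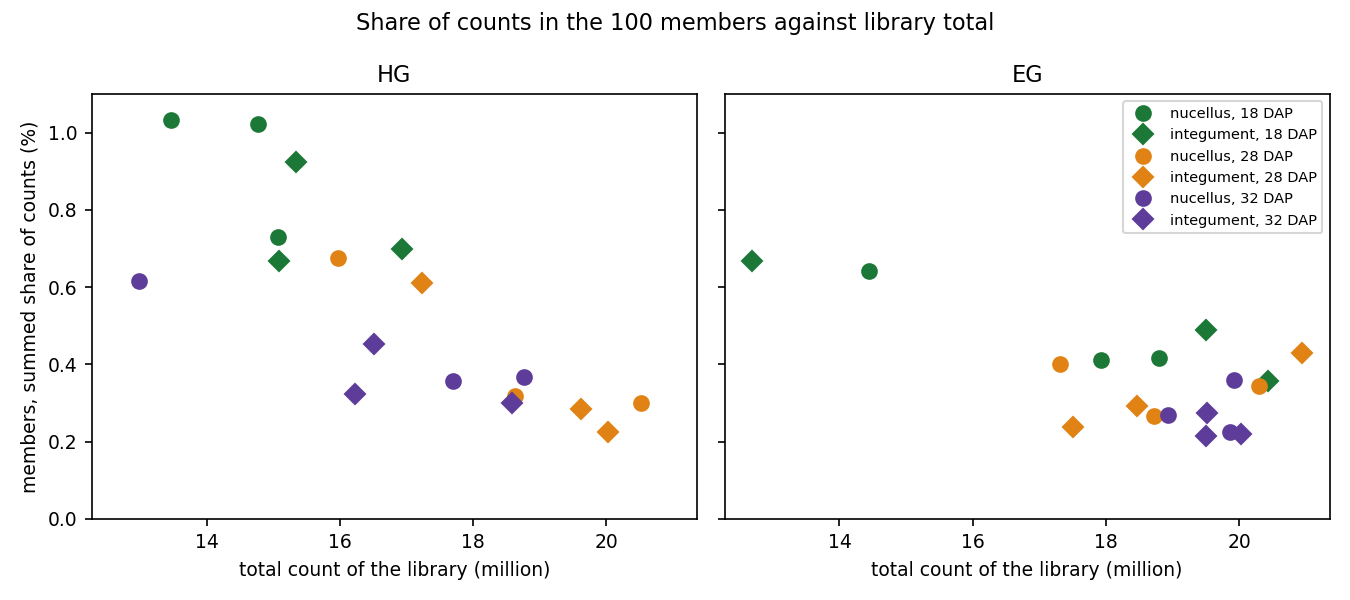
Share of each library's counts in the 100 members (%, vertical axis) against the library's total count (horizontal axis) for HG and EG, with circles for nucellus, diamonds for integument and colours for the stage. In HG the shares run from 0.225% to 1.03% and the 28 and 32 DAP libraries with the highest shares, 0.676%, 0.610% and 0.615%, have totals of 15972101, 17228193 and 12976584; in EG the 2 highest shares, 0.641% and 0.668%, are those of replicate 1 at 18 DAP.

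Without replicate 1 of EG at 18 DAP, 93 members in nucellus and 85 in integument were lower at 32 DAP, where 32.5% and 36.9% of the 28849 were. The remaining libraries also chose the members, so these counts say nothing of the part of library totals. The median ratio was then -0.49 in nucellus, against -0.77 with all libraries, and -0.42 in integument, against -0.78. Lower in all 4 series were 82 members, with 7.79% of the 28849. Without replicate 3 of HG at 32 DAP, the median ratio in HG was -1.09 in nucellus and -1.06 in integument. EG replicates 2 and 3 at 32 DAP differed least among all replicate pairs (a chi-square statistic over its degrees of freedom of 7.82 in nucellus and 6.22 in integument, against at least 11.3 for every other pair), and the labels do not say more on how they were taken.

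The choice was repeated 3 times with a replicate number left out of every group, and the drop was then read in the left-out libraries. With replicate 1 left out, 48 of the 100 genes chosen were lower at 32 DAP in all 4 series in the left-out libraries, where 22.2% of all identifiers over the same floor were. With replicate 2 left out, 29 were, beside 14.3% of all. With replicate 3 left out, 8 were, beside 7.60% of all. The median ratio in the left-out replicate 3 was 0.63 in HG nucellus, -0.01 in EG nucellus, 0.03 in HG integument and 0.14 in EG integument, beside medians over all identifiers of 0.09, 0.33, 0.04 and 0.26. The same genes had medians of -1.45, -1.11, -1.09 and -1.07 in the libraries that chose them. In the left-out replicate 1 the medians were -0.62, -0.43, -0.80 and -0.48, and in replicate 2 -0.46, -0.48, -0.50 and -0.49, in the same order of series. The medians over all identifiers ran from -0.15 to -0.06 in replicate 1 and from -0.24 to 0.00 in replicate 2. The lists themselves changed as well: 38, 37 and 37 of the 100 members were chosen again without replicates 1, 2 and 3. The left-out medians were thus below those of all identifiers in every series with replicates 1 and 2, while with replicate 3 they were below in EG nucellus and EG integument, at nearly the same value in HG integument and above in HG nucellus.

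**Figure D3:**
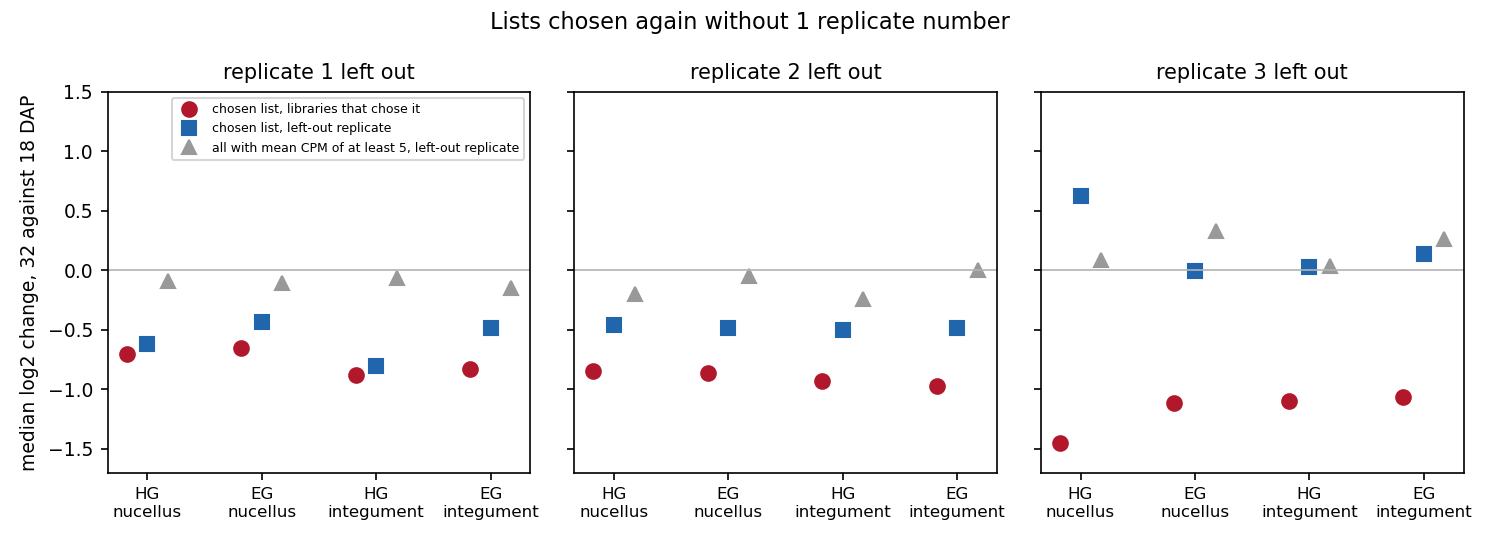
Median log2 ratio of 32 to 18 DAP for 100 genes chosen by the same rule with 1 replicate number left out, in the libraries that chose them (red circles) and in the left-out libraries (blue squares), with the median of all identifiers over the floor in the left-out libraries (grey triangles). Blue squares lie between -0.43 and -0.80 with replicates 1 and 2 left out and between -0.01 and 0.63 with replicate 3 left out.

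By group means, the level of most members at 28 DAP was past the midpoint between their 18 and 32 DAP levels in each series. The position of a member was set to 0 at its mean log2 level at 18 DAP and to 1 at that at 32 DAP. The median position at 28 DAP was 1.13 in HG nucellus, 0.97 in EG nucellus, 0.77 in HG integument and 0.76 in EG integument. Positions over 0.5 were held by 82, 84, 74 and 71 members in that order, and by 40 members in all 4 series. Members were spread widely, with quartiles of 0.63 and 1.79 in HG nucellus, 0.66 and 1.33 in EG nucellus, 0.49 and 1.33 in HG integument and 0.41 and 1.03 in EG integument. The SD over the 3 libraries at 28 DAP, each taken alone, was 0.69, 0.19, 0.77 and 0.26 in that order, so the series cannot be put in order. Members with a lower mean at 28 than at 18 DAP numbered 90 in HG nucellus (49.3% of the 28849), 97 in EG nucellus (68.7%), 91 in HG integument (53.5%) and 96 in EG integument (59.8%), and 78 were lower in all 4 (19.1%). All 3 libraries at 28 DAP were below all 3 at 18 DAP for 47 members in HG nucellus (11.0%), 21 in EG nucellus (4.84%), 33 in HG integument (16.0%) and 14 in EG integument (3.22%). The counts of members lower at 28 than at 18 DAP share the 18 DAP libraries with the rule. Both ends of the position scale are stages that chose the members, and positions were not counted over all identifiers. Counts and positions are therefore given as a description.

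The mean at 28 DAP was below that at 32 DAP for 63 members in HG nucellus (44.1% of the 28849), 47 in EG nucellus (74.9%), 41 in HG integument (44.6%) and 28 in EG integument (65.0%). Of these, few were free of overlap: all 3 libraries at 28 DAP lay below all 3 at 32 DAP for 1 member in HG nucellus (7.22% of the 28849), 4 in EG nucellus (11.8%), 3 in HG integument (9.98%) and 5 in EG integument (6.65%). The rule took genes that were low at 32 DAP, which holds all these counts down. They are given as a description, and a count under its background is no result about the members. The HG values joined 2 kinds of library. Without replicate 1 the median position was 1.67 in nucellus and 1.52 in integument, and that replicate alone stood at 0.48 and 0.21. In EG nucellus it was 0.84 without the low-detection replicate 1, and 0.63 with TMM scaling (trimmed mean of M values, which sets libraries to a common level by the bulk of their genes). In EG integument it was 0.53 with TMM scaling and 0.52 from the medians of libraries in place of their means, and in HG integument 1.18 from the medians. TMM moved the median change of all 28849 identifiers from 18 to 28 DAP in EG nucellus to 0.04, against -0.18 by library size, and the number of members lower at 28 DAP there to 87, beside 46.0% of the 28849.

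**Figure D4:**
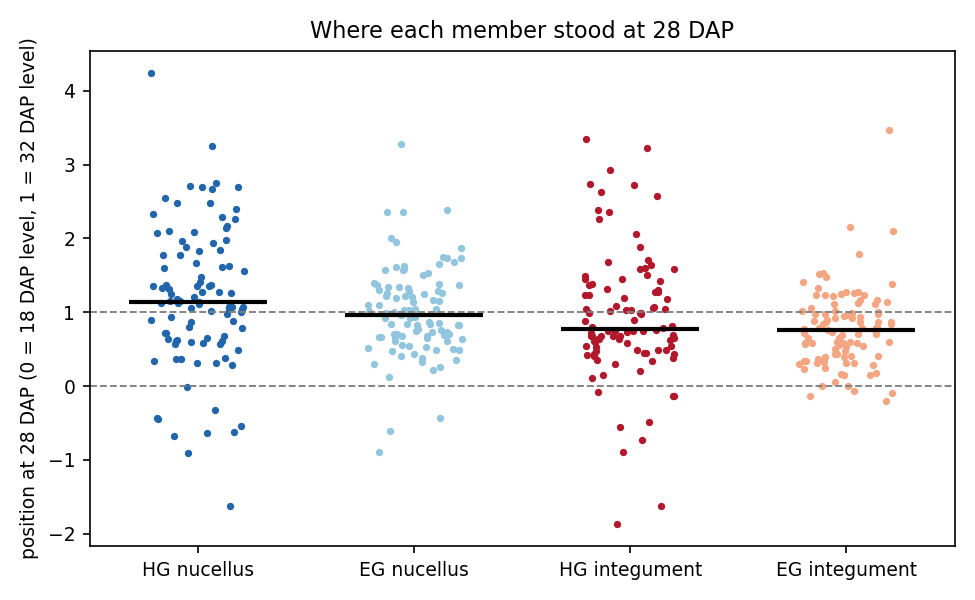
Position of each of the 100 members at 28 DAP in the 4 series (dots), on a scale where 0 is the member's mean log2(CPM + 1) at 18 DAP and 1 that at 32 DAP (dashed lines), with the median as a black bar. Medians lie between 0.76 and 1.13, and single members spread on both sides of the dashed lines.

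The member with the lowest position, c17633_g1, was higher at 28 than at 18 DAP by group means in HG and lower in EG. It had 14.8, 27.2 and 1.22 CPM in HG nucellus at 18 DAP, 34.0, 31.9 and 15.3 CPM at 28 DAP and 24.4, 1.75 and 2.77 CPM at 32 DAP. In HG integument it had 14.4, 27.0 and 1.37 CPM, then 35.8, 30.1 and 24.5 CPM, then 21.1, 2.40 and 3.09 CPM. Replicate 3 at 18 DAP and replicates 2 and 3 at 32 DAP were low in both tissues, so groups overlapped and the same libraries stood out in both tissues. In EG it averaged 28.0 CPM at 18 DAP, 15.8 CPM at 28 DAP and 13.0 CPM at 32 DAP in nucellus, and 28.4, 13.2 and 14.5 CPM in integument, with positions of 0.75 and 1.13. At the other end, c77849_g1 was lowest at 28 DAP in nucellus. It had 56.1, 62.8 and 171 CPM in HG nucellus at 18 DAP, 30.9, 23.98 and 26.6 CPM at 28 DAP and 40.6, 73.2 and 68.0 CPM at 32 DAP, with no overlap between 28 DAP and either other stage. In EG nucellus it had 90.3, 40.7 and 103 CPM at 18 DAP, 22.7, 31.3 and 34.3 CPM at 28 DAP and 41.7, 36.9 and 36.1 CPM at 32 DAP, again lowest at 28 DAP. In integument the later 2 stages overlapped. It had 59.8, 60.1 and 214 CPM in HG at 32 DAP, against 60.8, 54.8 and 60.3 CPM at 28 DAP, and 69.4, 93.1 and 113 CPM in EG at 32 DAP, against 94.0, 91.3 and 68.2 CPM at 28 DAP.

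Differences between tissues at 28 DAP were tested on means of libraries that did not choose the members. The spread between replicates in that fit was estimated over all libraries, including those that chose the members. The p-values and calls are therefore not fully independent of the choice. A gene near 0 in a tissue cannot be much lower there at 32 DAP, so the rule itself limits how tissue-bound a member can be. In EG, 19 members were called between nucellus and integument at 28 DAP (edgeR's quasi-likelihood test, adjusted p under 0.05), where 9.05% of the 57344 identifiers were. Of the 19, 3 were higher and 16 lower in nucellus, beside 3.43% and 5.61% of all identifiers. In HG, 8 members were called, beside 7.24% of all, 2 higher and 6 lower in nucellus (2.73% and 4.51% of all). The median log2 difference over members was -0.19 in EG and -0.16 in HG, and over all identifiers 0.02 and -0.01. Every member has a mean of at least 5 CPM, while many of the 57344 identifiers have less. With the test run on identifiers over that floor, 20 members were called in EG, beside 12.1% of those tested. In HG 8 were called, beside 9.92%, so the HG count was not above its background in that fit. With the replicate number as a block the HG count was 26, beside 13.4% of all identifiers. DESeq2 called 15 in HG, beside 9.63%. Both of these backgrounds include identifiers under the floor. Whether the HG count was above its background thus depended on the fit. In both cultivars most members called by edgeR with TMM were higher in integument, as were most of all identifiers called.

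Same-numbered nucellus and integument libraries of a cultivar and stage deviated together from their group means, with correlations of 0.12 to 0.72. The main edgeR fit, without a block, ignores this. With the number as a replicate block, edgeR called 30 members in EG (13.8% of all identifiers) and 26 in HG (13.4%). Of the calls without the block, 16 of 19 in EG and 8 of 8 in HG were kept. The counts also moved with the libraries in the fit. The compared libraries alone gave 0 members in EG (0.421% of all identifiers) and 20 in HG (13.3%). Leaving out a library gave 13 to 19 in EG, beside 4.87% to 10.1% of all, and 3 to 13 in HG, beside 3.68% to 8.81% of all. In HG the count was 13 without nucellus replicate 1 (5.78% of all), 3 without nucellus replicate 2 (3.68%), 4 without nucellus replicate 3 (4.38%), and 5 without integument replicate 1 (4.76%) or 2 (5.003%). Library size in place of TMM turned the HG split to 4 higher and 3 lower in nucellus, and left the EG split at 3 and 16. With limma on log2(FPKM + 1) the HG split was 5 higher and 4 lower in nucellus, where 7.75% of all identifiers were called. The EG split was then 2 and 14, beside 7.03% of all.

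The cultivars shared 5 tissue calls, which is 26.3% of those in EG and 62.5% of those in HG, all 5 in the same direction. With the replicate block they shared 18, of 30 in EG and 26 in HG, again all in the same direction. The matching shares over all identifiers were not counted. Neither the overlap nor the agreement in direction is therefore shown to be particular to the members. Among the 5, c12982_g1 was a nucellus transcript. It had 33.1, 62.5 and 61.7 CPM in HG nucellus at 28 DAP, against 3.77, 2.55 and 4.54 CPM in HG integument. In EG it had 34.3, 16.2 and 24.8 CPM in nucellus, against 3.15, 1.31 and 2.17 CPM in integument. Every nucellus library was above every integument library, with a log2 fold change of 3.77 in HG (SE 0.66, edgeR adjusted p = 0.000320) and 3.74 in EG (SE 0.66, edgeR adjusted p = 0.000356).

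On the integument side, c87882_g1 had 5.76, 1.75 and 1.396 CPM in HG nucellus at 28 DAP, against 54.0, 15.3 and 19.8 CPM in HG integument. In EG it had 0.690, 3.15 and 0.231 CPM in nucellus, against 23.9, 49.7 and 26.9 CPM in integument. The tissues did not overlap in either cultivar (log2 fold change -3.46, SE 0.75, edgeR adjusted p = 0.00367 in HG; -4.50, SE 0.80, edgeR adjusted p = 0.000404 in EG). Another of the shared calls, c62509_g1, was at 5.63, 1.46 and 3.17 CPM in nucellus, against 143, 75.8 and 98.4 CPM in integument in HG (log2 fold change -5.08, SE 0.62, edgeR adjusted p = 3.4e-06). In EG it was at 10.1, 1.33 and 2.77 CPM in nucellus, against 95.1, 58.2 and 91.5 CPM in integument (log2 fold change -3.69, SE 0.58, edgeR adjusted p = 8.87e-05). No nucellus library reached an integument library in either cultivar. At the other stages it had 177, 137 and 201 CPM in HG integument at 18 DAP and 74.1, 92.7 and 84.0 CPM at 32 DAP, without overlap between these stages.

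Other tissue calls were found in a single cultivar. Those named here had a log2 fold change of the same sign in the other cultivar, without a call. It was -2.23 for c29506_g1, -2.69 for c24937_g1 and 1.79 for c64943_g1 in HG (edgeR adjusted p = 0.193, 0.165 and 0.304). For c84171_g1 it was 1.96 in EG (edgeR adjusted p = 0.230). In EG, c29506_g1 had 0.739, 0.641 and 0.404 CPM in nucellus, against 28.6, 1.26 and 29.6 CPM in integument (edgeR adjusted p = 0.00487, log2 fold change -4.91, SE 1.12). The groups did not overlap, but integument replicate 2 was close to the nucellus values. For c24937_g1 the EG call (edgeR adjusted p = 0.00358, log2 fold change -5.88, SE 1.29) came with overlap, since integument replicate 2 was below nucellus replicate 1. In the same cultivar c64943_g1 had 3.79, 7.42 and 5.25 CPM in nucellus, against 0.477, 0.400 and 0 CPM in integument (log2 fold change 4.28, SE 1.13, edgeR adjusted p = 0.0148). That call was lost without integument replicate 2 (edgeR adjusted p = 0.0508) or 3 (0.0867) and with the compared libraries alone (0.119), and limma on log2(FPKM + 1) gave a difference of 1.67. In HG, c84171_g1 had 1292, 456 and 532 CPM in nucellus, against 160, 16.6 and 49.8 CPM in integument (log2 fold change 3.26, SE 1.01, edgeR adjusted p = 0.0481). That call was lost when any of 5 of the 6 libraries was left out, with adjusted p from 0.0724 to 0.189.

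**Figure D5:**
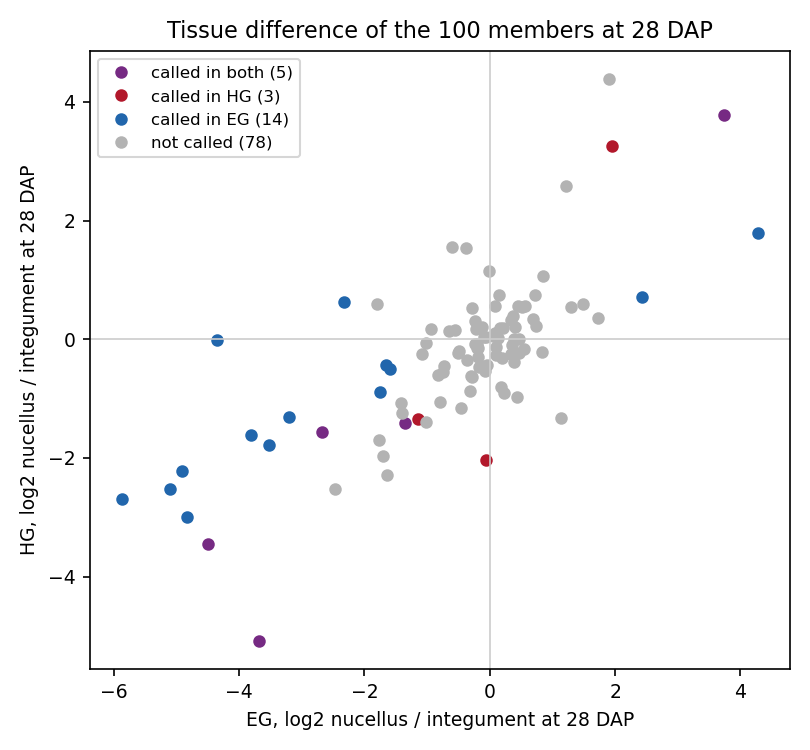
Log2 fold change of nucellus over integument at 28 DAP for each of the 100 members in EG (horizontal axis) and HG (vertical axis), with colours for members called by edgeR at an adjusted p under 0.05 without a replicate block. The 5 members called in both cultivars have the same sign in each, out of 22 called in either.

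Whether the tissue difference at 28 DAP differed between the cultivars was tested as a difference of differences, and edgeR called 0 of the 100 members (0% of all identifiers), with 10 members at an unadjusted p under 0.05 (4.70% of all). DESeq2 and limma on FPKM also called 0 members (0.00212% and 0% of the identifiers tested). Calls in EG alone or in HG alone are therefore not shown to differ between the cultivars. The smallest p was that of c19208_g1, with 10.9, 9.36 and 7.73 CPM in HG nucellus, against 11.4, 3.05 and 2.70 CPM in HG integument, and with 0.788, 1.71 and 4.39 CPM in EG nucellus, against 23.4, 3.37 and 5.74 CPM in EG integument. The HG tissues overlapped, and so did the EG tissues (log2 difference of differences 2.96, SE 0.97, edgeR adjusted p = 1.00).

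Between cultivars at 28 DAP, edgeR called 0 members in nucellus (0% of all identifiers), with 12 at an unadjusted p under 0.05 (12.4% of all), and 0 in integument (0%), with 8 (6.70% of all). DESeq2 called 0 members in nucellus (1.01% of the identifiers it tested) and 0 in integument (0.0659%). With limma on FPKM the count was 0 in nucellus (0.0401% of all) and 0 in integument (0%). The median log2 difference of HG over EG was 0.21 in nucellus, with 68 members higher in HG (48.1% of all identifiers), and 0.13 in integument, with 65 (48.4% of all). By library size in place of TMM the nucellus median was 0.58, beside 0.20 over all identifiers, of which 62.7% were higher in HG. Without replicate 1 of HG the nucellus median was -0.09 and, without the same replicate of integument, the integument median was -0.37. The sign of each median thus turned when that 1 library was left out. The smallest p in nucellus was that of c58604_g1, with 28.0, 20.0 and 17.6 CPM in HG, against 1.97, 11.2 and 14.6 CPM in EG with a log2 fold change of 1.14 (SE 0.35, edgeR adjusted p = 0.211). All HG values were above all EG values. The lowest, 1.97 CPM, was in replicate 1 of EG nucellus, the library with the fewest detected identifiers. The share of all identifiers without such overlap was not counted. In integument it was that of c34721_g1, with 1.51, 0.649 and 3.06 CPM in HG, against 10.9, 4.46 and 5.20 CPM in EG with a log2 fold change of -2.05 (SE 0.55, edgeR adjusted p = 0.725).

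At 18 and 32 DAP, the stages that chose the members, the values are given without a test. The mean was higher in HG than in EG nucellus for 91 members at 18 DAP, where it was for 56.8% of the 28849, and for 88 at 32 DAP (47.0%). In integument it was higher in HG for 78 members at 18 DAP (49.9%) and for 74 at 32 DAP (40.2%). The median HG minus EG difference in log2 level came to 0.70 at 18 DAP and 0.65 at 32 DAP in nucellus and 0.38 and 0.35 in integument. Without replicate 3 of HG at 32 DAP, the median difference at 32 DAP was 0.29 in nucellus, with 77 members higher in HG (40.7% of the 28849), and 0.09 in integument, with 58 (36.9%). The HG totals at 18 DAP were lower than most EG totals, as given above, and the part of this in the difference was not tested.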

How the data were processed

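RNA from captured tissue was amplified and sequenced in 36 libraries, 3 in each of 12 groups of cultivar, tissue and stage. Read counts and, in a second table, FPKM values per identifier and library are as the authors deposited them. The submitters' processing notes name cutadapt, Bowtie2, RSEM and DESeq; their versions, the reference and the annotation are not stated there. Amplification from random primers can change relative levels between libraries, and the counts do not show by how much.

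The 100 members were chosen on CPM from the counts, with a pseudocount of 1 and a floor of 5 CPM. The members, lists and tests were chosen with earlier results of these data known. Of 128861 identifiers, 34664 had no count. Differences at 28 DAP were tested with edgeR 4.0.16 in R 4.3.3 (quasi-likelihood F test, TMM scaling, filterByExpr with a minimum count of 10 and a total of 15, 1 mean per group over 36 libraries with 24 residual degrees of freedom, Benjamini-Hochberg adjustment over 57344 identifiers, threshold 0.05). DESeq2 1.42.0 on the same counts and limma 3.58.1 on log2(FPKM + 1) were alternatives, as were a replicate block, other scalings and filters, the compared libraries alone and leaving out each library. The member rule was run on simulated counts with drops larger than those of most members. Replicates there differed only by random counting. The edgeR fit was run on simulated counts with large tissue differences. Those settings differ from the data, so the runs do not show how stable the members or calls are. Leaving out replicate 1 of EG at 18 DAP or replicate 3 of HG at 32 DAP in both tissues was chosen after seeing the data.

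Deviations from group means of same-numbered nucellus and integument libraries correlated at 0.12 to 0.72 over 18 pairs, so the numbers may pair the tissues. The main fit had no replicate block, and its tissue calls, SEs and p-values ignore such a pairing. Counts with the block are given beside them. Between cultivars the range was -0.15 to 0.12, and the numbers were not taken to pair the cultivars.

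Named members are ranks 1, 2, 100 and 101 of the rule, the 2 with the highest mean, those with the lowest and highest median position at 28 DAP, and, for each test, up to 2 called members with the largest difference in each direction without overlap, or else the smallest p. The EG values of c62509_g1 and c24937_g1 were added after their values were seen.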

Additional observations from a re-analysis of the deposited data

How the results depend on the processing

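Among alternative values for the main counts and medians, 157 stayed within the spread or within 1.5 times the value given and 16 moved. The spread of a median position was the SD between single libraries at 28 DAP. HG integument, at 0.77 and at 1.52 without replicate 1, therefore counted as staying (SD 0.77). The 157 also include counts that the rule itself holds high and counts of 0, so the tally is no measure of stability. For tissue calls in EG (19), the compared libraries alone gave 0 and the replicate block 30, and leaving out a library gave 13 to 19. For tissue calls in HG (8), the compared libraries alone gave 20, the replicate block 26 and DESeq2 15, and leaving out a library gave 3 to 13. With the replicate block, 18 members were called in both cultivars, all in the same direction. Counts of members called between cultivars and for the difference of differences were 0 in every alternative run, with the replicate block too. The share of all identifiers called in these runs was at most 1.01% (DESeq2, nucellus). Of the 100 members, 53 were chosen again with a pseudocount of 10, 37 with a floor of 20 CPM and 37 to 38 without a replicate number. With TMM the median position in EG nucellus was 0.63. Of the values for single named members, 153 kept their side of the threshold, 12 lost the call and 0 changed sign; the compared libraries alone ended the EG calls of c29506_g1 (adjusted p = 0.143), c87882_g1 (0.0776), c64943_g1 (0.119) and c12982_g1 (0.0657), all from edgeR. The cause of these moves was not tested. Library totals of 12687779 to 20947644 counts and the spread between replicates limit what can be said of the 38 members under 10 CPM. In each library 94 to 100 of the members had at least 10 counts.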
